A study of Mus musculus with 24 samples.

Results

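Igfbp2, Igfbp3 and Igfbp4 encode 3 secreted binding proteins of the insulin-like growth factors (IGFs). Their RNA was followed in cells sorted from mouse embryoid bodies, in which clumps of embryonic stem cells differentiate. The 3 genes were chosen by name, with their values in these samples already known, and each was read from the 1 probe whose platform annotation names that gene alone, so 3 of 20280 probes and 3 of 8973 named genes are described. Flk1 (Flk in the sample labels), the VEGF receptor encoded by Kdr, was the surface protein of the sort. The 6 groups were Flk1+ cells at 84 h, Flk1- cells at 84 h, Flk1+ cells at 95 h, Flk1- cells at 95 h, Flk1+ cells at 8 d and Flk1- cells at 8 d of differentiation, with 4 arrays each. The stem cell line, the gates of the sort and any treatment are not given in the sources used here. They number the samples of a group but name no separate cultures, so error terms and p-values cover the sample-to-sample spread alone, and that may be technical. Each array compared Cy5-labelled sample RNA with Cy3-labelled RNA of whole mouse pups, 1 common reference. A value is therefore a log2 ratio to that reference, and says how a group stands to another group at the same probe, not how abundant 1 gene is beside another. The log base is not given in the sources used here and was read as 2.

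IGF1 and IGF2 signal growth and survival through the IGF1 receptor, and binding proteins of this family hold the ligands outside the cell. Binding can block access to the receptor, and proteases that cut the binding protein set the ligand free. IGFBP2 carries an RGD sequence that integrins can bind. IGFBP3 is the main carrier of IGFs in blood and also has effects on cells that do not need IGF. IGFBP4 mostly inhibits IGF action and has also been described to bind the Wnt receptors Frizzled-8 and LRP6 and to oppose Wnt signalling. Wnt signalling in endothelial commitment is the subject named in the study's title.

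The promoters of the 3 genes are shown because their RNA took opposite sides of the sort. Each sequence holds the 250 bases before a RefSeq transcript start (build GRCm38.p6), read 5′ to 3′ on the strand of the gene. Capitals mark the core letters of the hypoxia response element on either strand, which are ACGTG and, as the other accepted form, GCGTG. Igfbp3 is a known target of the hypoxia response.
Igfbp2, chr1:72824230-72824479, plus strand: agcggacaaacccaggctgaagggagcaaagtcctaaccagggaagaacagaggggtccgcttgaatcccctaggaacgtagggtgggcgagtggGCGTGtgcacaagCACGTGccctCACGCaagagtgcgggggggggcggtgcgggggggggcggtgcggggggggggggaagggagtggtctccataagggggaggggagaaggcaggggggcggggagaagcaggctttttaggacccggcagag
Igfbp3, chr11:7213924-7214173, minus strand: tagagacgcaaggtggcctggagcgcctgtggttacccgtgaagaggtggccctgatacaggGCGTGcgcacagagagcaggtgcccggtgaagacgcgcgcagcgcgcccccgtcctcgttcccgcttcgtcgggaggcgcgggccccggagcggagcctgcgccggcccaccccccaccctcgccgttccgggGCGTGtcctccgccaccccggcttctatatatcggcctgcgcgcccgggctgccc
Igfbp4, chr11:99040994-99041243, plus strand: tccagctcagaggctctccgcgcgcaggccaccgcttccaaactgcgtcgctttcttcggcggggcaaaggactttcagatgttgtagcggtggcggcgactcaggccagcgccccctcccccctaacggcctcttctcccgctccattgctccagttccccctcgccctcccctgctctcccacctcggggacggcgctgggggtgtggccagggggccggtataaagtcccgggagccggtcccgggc

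The Igfbp2 window held 3 separate stretches with these letters, and the Igfbp3 window held 2. In the middle stretch of Igfbp2, which reads the same on both strands, overlapping matches were counted as 1 stretch. The Igfbp4 window and the window before a second listed Igfbp2 start held 0. Of 32851 windows of this length 38.6% held at least 1 stretch, 13.5% at least 2 and 4.7% at least 3. A match is a description of letters and not of binding. In the RefSeq order of protein-coding genes Igfbp2 lies next to Igfbp5 on chromosome 1, and Igfbp3 next to Igfbp1 on chromosome 11.

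The sort was checked with Kdr, which was higher on every Flk1+ array than on every Flk1- array of the same time. The fold was 3.75 at 84 h (adjusted p = 1.39e-05), 7.61 at 95 h (adjusted p = 1e-07) and 3.72 at 8 d (adjusted p = 0.000155) by limma over 17440 features. Flk1+ arrays 2 and 4 and Flk1- array 4 of 84 h stood apart from the other arrays in an earlier analysis of these data. The 84 h sort differences of the 3 binding protein genes are therefore also given without them. The Kdr difference between arrays of the same number at 84 h was smaller for numbers 2 and 4 (0.77 and 1.75) than for 1 and 3 (2.67 and 2.43). Of the markers of other cells, the pluripotency list (9 of 13 genes measured) had a mean log2 ratio of 0.43 to 0.98 on the Flk1+ arrays and 1.54 to 1.57 on the Flk1- arrays of 84 h. At 95 h it was 0.41 to 0.60 (Flk1+) and 1.09 to 1.38 (Flk1-). The early mesoderm list (8 of 14 measured) lay the other way, at 1.37 to 1.87 on the Flk1+ and 0.53 to 1.01 on the Flk1- arrays of 84 h. At 95 h it was at 1.46 to 1.58 and 1.09 to 1.25, and at 8 d its sorts overlapped, at 0.56 to 0.78 and 0.72 to 0.82. The endoderm list (8 of 14 measured) had a lower mean on the Flk1+ arrays at each time. It was at -1.10 to -0.94 against -0.74 to -0.47 at 84 h and -1.21 to -0.96 against -0.49 to -0.17 at 95 h. At 8 d it was at -0.93 to -0.76 against -0.15 to 0.22. Its genes did not all go 1 way: at 84 h limma called 3 lower (Foxa1, Foxa2, Sox17) and 2 higher (Gata6, Apoa1) in Flk1+ cells. At 95 h 2 were called lower and 0 higher, and at 8 d 3 and 0. The neural list (7 of 10 measured) was at -1.16 to -0.82 on the Flk1+ and -0.67 to -0.41 on the Flk1- arrays of 84 h. Its sorts overlapped at 95 h, at -0.98 to -0.71 and -0.996 to -0.45. At 8 d they were at -1.48 to -1.31 and -1.29 to -0.99. At 8 d the pluripotency list was at -0.12 to -0.083 (Flk1+) and 0.19 to 0.38 (Flk1-), and the endothelial list (6 of 13 measured) at -0.58 to -0.088 and -1.13 to -1.03. The endothelial list overlapped between the sorts before, at -1.43 to -0.92 and -1.26 to -1.19 at 84 h. At 95 h it was at -1.30 to -1.01 (Flk1+) and -1.07 to -0.82 (Flk1-), with Flt1 called lower in Flk1+ cells. The pluripotency, early mesoderm and endoderm lists kept the sorts apart at 84 h and 95 h, as did the binding protein genes below. At 8 d the pluripotency, endoderm, endothelial and neural lists kept them apart, as did Igfbp2. So did the blood list (6 of 12 measured), at -0.086 to -0.016 (Flk1+) and 0.18 to 0.22 (Flk1-), though its sorts overlapped before. Of the 9 pluripotency genes limma called 5 lower in Flk1+ cells at 84 h (13.5% of all features called), 2 at 95 h (2.03%) and 0 at 8 d (0.373%). It called 0 of them higher. The sorts overlapped at 8 d for Igfbp3, Igfbp4 and the early mesoderm list. They also overlapped then for the cardiac list (9 of 11 measured) and the smooth muscle and fibroblast list. The part of the marker levels in the values below was not tested. In such sorted populations fewer cells of a type and less RNA per cell cannot be told apart.

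Igfbp2 was lower in Flk1+ than in Flk1- cells at all 3 times. At 84 h its log2 ratio on Flk1+ arrays 1 to 4 was -1.74, -1.77, -1.54 and -1.82. The 4 Flk1- arrays of 84 h gave -0.44, -0.42, -0.62 and -0.25. Every Flk1+ array lay below every Flk1- array, with 0.92 between the nearest, and the difference of the means was -1.28 (SE 0.16), or 2.43-fold. Without the 3 arrays that stood apart it was -1.14, and after quantile normalization -0.83.

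At 95 h Igfbp2 was at -1.19, -1.34, -1.26 and -1.42 on the Flk1+ arrays. On the Flk1- arrays of 95 h it was at -0.39, -0.32, 0.07 and -0.34. The sorts again did not overlap, and the difference was -1.06 (SE 0.16), or 2.08-fold. At 8 d the Flk1+ arrays gave -1.004, -0.53, -1.38 and -0.90 and the Flk1- arrays -0.30, 0.33, -0.35 and -0.29. Here the nearest arrays of the sorts were 0.18 apart, and the difference was -0.80 (SE 0.16), or 1.74-fold. Array 2 was the highest of the 4 in both sorts at 8 d, and the differences between arrays of the same number, -0.70, -0.86, -1.03 and -0.61, spread less (SD 0.19) than the arrays of either sort (SD 0.35 in Flk1+ and 0.32 in Flk1- cells).

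Over time Igfbp2 moved less than it differed between the sorts. In Flk1+ cells it was 0.41 (SE 0.16) higher at 95 h than at 84 h, and 0.35 (SE 0.16) higher at 8 d than at 95 h. In Flk1- cells the same steps were 0.19 (SE 0.16) and 0.09 (SE 0.16), with overlapping arrays at both. After quantile normalization the Flk1+ steps were 0.082 and -0.076. In the order of its group means the 3 Flk1- groups stood highest, at -0.15 ± 0.32 (SD, n = 4) at 8 d, -0.24 ± 0.21 at 95 h and -0.43 ± 0.15 at 84 h. The Flk1+ groups followed at -0.95 ± 0.35 at 8 d, -1.30 ± 0.10 at 95 h and -1.72 ± 0.12 at 84 h. Of neighbours in this order, the arrays overlapped for all except Flk1+ cells of 95 h over Flk1+ cells of 84 h.

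**Figure D1:**
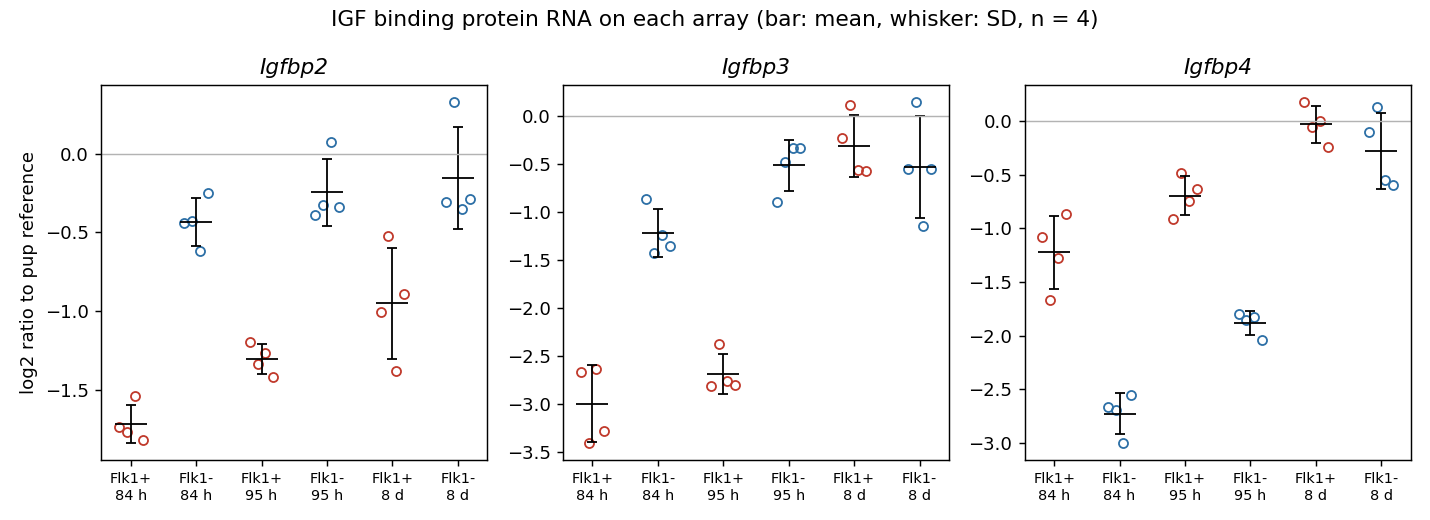
Log2 ratio to the pup reference of Igfbp2, Igfbp3 and Igfbp4 on each of the 24 arrays (y axis, a scale for each gene) in the 6 groups (x axis). Circles are arrays (red Flk1+, blue Flk1-), bars are means and whiskers SDs of 4 arrays. Igfbp2 and Igfbp3 lie lower and Igfbp4 higher in Flk1+ cells at 84 h and 95 h, while at 8 d the sorts overlap for Igfbp3 and Igfbp4.

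Igfbp3 was far lower in Flk1+ than in Flk1- cells at 84 h and 95 h, and its sorts overlapped at 8 d. At 84 h it was at -2.67, -3.41, -2.64 and -3.28 on the Flk1+ arrays. The Flk1- arrays of 84 h gave -0.87, -1.43, -1.24 and -1.36. No arrays overlapped, and the difference was -1.78 (SE 0.23), or 3.42-fold. The lower pair of Flk1+ values belonged to arrays 2 and 4, and without the 3 arrays that stood apart the difference was -1.48, while quantile normalization gave -1.33.

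At 95 h the Flk1+ arrays gave -2.82, -2.38, -2.76 and -2.80 for Igfbp3. The Flk1- arrays gave -0.90, -0.48, -0.33 and -0.34. The nearest arrays of the sorts were 1.48 apart, and the difference was -2.18 (SE 0.23), or 4.52-fold. Of all 17440 features it had the difference that ranked 6 from the lowest at 95 h, in the same comparison in which Kdr ranked 1 from the highest. The difference lay between -2.46 and -1.90 in the 4 numbered pairs of arrays.

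At 8 d Igfbp3 was at -0.23, 0.11, -0.57 and -0.57 on the Flk1+ arrays. On the Flk1- arrays it was at -0.55, 0.15, -1.15 and -0.56. The sorts overlapped, and the difference was 0.21 (SE 0.23), positive in 2 and negative in 2 of the 4 numbered pairs. Between 95 h and 8 d the difference of the sorts had moved by 2.39 (SE 0.33), which ranked 2 from the highest of all features. In Flk1+ cells Igfbp3 was 2.37 (SE 0.23) higher at 8 d than at 95 h, or 5.18-fold, with 1.80 between the nearest arrays, while in Flk1- cells the step was -0.02 (SE 0.23). From 84 h to 95 h it was 0.71 (SE 0.23) higher in Flk1- cells, with arrays that overlapped slightly, and 0.31 (SE 0.23) in Flk1+ cells. The latter step was -0.031 when the 3 arrays that stood apart were left out, -0.039 with array weights and -0.083 after quantile normalization.

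The order of the Igfbp3 group means had 2 groups far below the other 4, of which Flk1- cells of 84 h stood 0.69 below the next higher mean. Flk1+ cells of 8 d (-0.31 ± 0.33), Flk1- cells of 95 h (-0.51 ± 0.27), Flk1- cells of 8 d (-0.53 ± 0.53) and Flk1- cells of 84 h (-1.22 ± 0.25) each overlapped with the next. Flk1+ cells of 95 h (-2.69 ± 0.21) did not overlap with them: the next higher mean was 1.46 above and the nearest arrays were 0.95 apart. They overlapped with Flk1+ cells of 84 h (-3.00 ± 0.40).

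Igfbp4 stood on the other side of the sort, with more RNA in Flk1+ than in Flk1- cells at 84 h and 95 h. At 84 h it was at -1.08, -1.67, -1.28 and -0.87 on the Flk1+ arrays. The Flk1- arrays gave -2.66, -2.70, -3.00 and -2.56. The nearest arrays were 0.89 apart, and the difference was 1.505 (SE 0.17), or 2.84-fold. It was 1.61 without the 3 arrays that stood apart and 1.72 after quantile normalization.

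At 95 h the Flk1+ arrays gave -0.92, -0.49, -0.75 and -0.64 for Igfbp4. The Flk1- arrays gave -1.80, -1.86, -1.83 and -2.04. No arrays overlapped, and the difference was 1.19 (SE 0.17), or 2.28-fold. At 8 d the Flk1+ arrays were at 0.18, -0.06, -0.0004 and -0.24, and the Flk1- arrays at -0.10, 0.13, -0.55 and -0.59. The sorts overlapped at this time, with a difference of 0.25 (SE 0.17) that was positive in 3 of 4 numbered pairs.

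The Igfbp4 mean was higher at each later time in both sorts. From 84 h to 95 h it was higher by 0.53 (SE 0.17) in Flk1+ cells, where arrays overlapped, and 0.85 (SE 0.17) in Flk1- cells, where they did not. After quantile normalization the Flk1+ step was 0.26. From 95 h to 8 d it was higher by 0.67 (SE 0.17) in Flk1+ and 1.60 (SE 0.17) in Flk1- cells, or 3.04-fold, with no overlap in either. The change of the sort difference from 95 h to 8 d was -0.94 (SE 0.24). Its group means ran from -0.03 ± 0.17 in Flk1+ and -0.28 ± 0.35 in Flk1- cells of 8 d, through -0.70 ± 0.18 and -1.22 ± 0.34 in Flk1+ cells of 95 h and 84 h, to -1.88 ± 0.11 and -2.73 ± 0.19 in Flk1- cells of 95 h and 84 h. The first 4 of these groups overlapped each with the next, and the last 2 stood apart from their neighbours.

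Set side by side, Flk1+ and Flk1- arrays were fully separate for all 3 genes at 84 h, where 17.4% of all features had no overlap. At 95 h this held for all 3 genes and 4.81% of features, and at 8 d for Igfbp2 alone and 15.9% of features. For times, no overlap was seen for Igfbp2 in Flk1+ cells from 84 h to 95 h (13.2% of features), for Igfbp4 in Flk1- cells over that step (9.98%), for Igfbp3 and Igfbp4 in Flk1+ cells from 95 h to 8 d (34.6%) and for Igfbp4 in Flk1- cells over that step (27.8%). The genes were chosen with these values known, so the counts describe them and test nothing. The sort difference of each of the 3 genes kept its sign at each time under the alternative settings, many of which cannot alter it, although that of Igfbp3 at 8 d came down to 0.01 without Flk1- array 3 and up to 0.44 without Flk1- array 2 of that time. As a description over the 24 arrays, which share the groups and the reference, Igfbp2 correlated with Igfbp3 at r = 0.81, and Igfbp4 at r = -0.20 with Igfbp2 and 0.12 with Igfbp3. For deviations from the group means these became 0.61, 0.25 and 0.43.

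**Figure D2:**
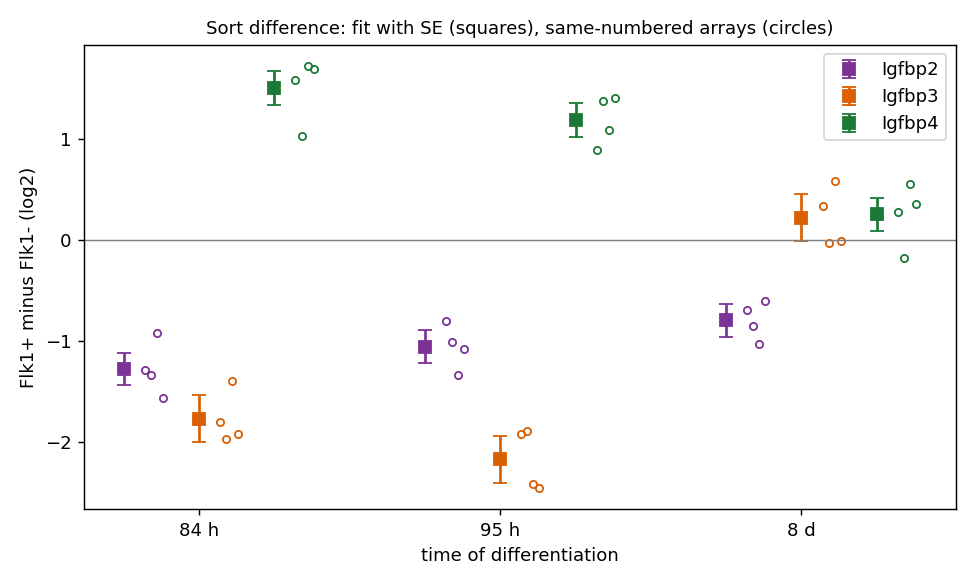
Flk1+ minus Flk1- difference on the log2 scale (y axis) at each time (x axis) for the 3 genes. Squares are fitted differences with their SE, and open circles the differences between arrays of the same replicate number. Igfbp2 stays below 0 at the 3 times, Igfbp3 goes from -2.18 at 95 h to 0.21 at 8 d, and Igfbp4 from 1.19 to 0.25.

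The rest of the IGF system was read from lists with 61 genes, of which 34 were measured. At 84 h the sorts differed by the test for 7 of the 34, of which Flk1+ cells had more of 3 and less of 4, which is 20.6% against 13.5% of all features. Leaving out single arrays of 84 h gave between 3 (without Flk1+ array 4 or Flk1- array 3) and 12 (without Flk1+ array 1), with 11 without Flk1+ array 3 and 4 without Flk1- array 1, and without the 3 arrays that stood apart 2 were called. At 95 h 0 were higher and 4 lower (11.8% against 2.03%). At 8 d 0 were called by limma (0.373% of features), with 5 at an unadjusted p under 0.05. With the replicate number as a block, 545 in place of 354 features were called at 95 h and 139 in place of 65 at 8 d. The median difference of the 34 was -0.03, 0.05 and -0.04 at the 3 times, beside 0.0041, -0.0035 and 0.0067 over all features.

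The ligand and receptor genes measured were not called between the sorts at any time. Some ligand differences still had an unadjusted p under 0.05 by limma, all higher in Flk1+ cells. These were Igf1 at 8 d (0.52, unadjusted p = 0.00386, adjusted p = 0.328) and Igf2 at 84 h (0.36, unadjusted p = 0.0361) and 95 h (0.44, unadjusted p = 0.0128). Igf2, the main IGF of the embryo, was at -1.91 ± 0.16 (Flk1+) and -2.26 ± 0.07 (Flk1-) at 84 h, -1.33 ± 0.17 and -1.77 ± 0.21 at 95 h, and 0.02 ± 0.45 and -0.17 ± 0.10 at 8 d. From 95 h to 8 d it rose by 1.35 (SE 0.16, adjusted p = 2e-06) in Flk1+ and 1.59 (SE 0.16, adjusted p = 2.49e-07) in Flk1- cells by limma. Igf1, the other ligand, rose by 0.69 (SE 0.16, adjusted p = 0.00348) in Flk1+ cells over this step, a call lost after quantile normalization (0.32, adjusted p = 0.217), and was 0.04 higher in Flk1- cells with no call. Igf1r, the receptor of both ligands, rose by 0.47 and 0.45 (SE 0.13 each, adjusted p = 0.00961 and adjusted p = 0.0153), calls that were lost after quantile normalization and when Igf1r was read from its most variable probe. The Flk1- call of Igf1r was also lost without array 2 of 8 d or array 1 of 95 h. Insr, the insulin receptor gene, was not called in any comparison, with group means from -1.47 to -0.89.

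Of the other binding proteins, Igfbp5 showed no difference between the sorts that passed the test and a large one between times. It was at -2.88 ± 0.43 (Flk1+) and -2.85 ± 0.19 (Flk1-) at 84 h, and at -3.11 ± 0.07 and -3.05 ± 0.34 at 95 h. At 8 d it stood at 0.01 ± 0.21 and -0.41 ± 0.30. The rise from 95 h was 3.12 (SE 0.19, adjusted p = 1.46e-10) or 8.72-fold in Flk1+ and 2.64 (SE 0.19, adjusted p = 1.89e-09) or 6.23-fold in Flk1- cells. For its neighbour Igfbp2 the same steps were 0.35 and 0.09. Igfbpl1, a gene of related sequence, had group means between -0.23 and 0.03 and was not called. Igfbp1, Igfbp6, Igfbp7 and the proteases that cut binding proteins were not analysed here. The smooth muscle and fibroblast marker list (10 of 14 measured) went from -2.03 to -1.81 on the Flk1+ arrays of 95 h to -0.39 to -0.23 at 8 d, and from -1.997 to -1.86 to -0.51 to -0.28 on the Flk1- arrays. Limma called 6 of its genes higher and 0 lower in Flk1+ cells over this step (22.1% of all features called). In Flk1- cells it called 5 higher and 1 lower (17.7%). The list moved with the later levels of Igfbp3 in Flk1+ cells and of Igfbp4, Igfbp5 and Igf2 in both sorts. In Flk1- cells it rose while the Igfbp3 step was -0.02. The blood and cardiac lists were also higher at 8 d than at 95 h in both sorts. The endothelial list was higher in Flk1+ cells alone. The part of these lists in the values was not tested.

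Regulators of Igf2 moved in different directions between 95 h and 8 d. Plagl1, an imprinted zinc finger factor known to act on the Igf2 locus, rose by 2.22 (SE 0.27, adjusted p = 2.8e-06) in Flk1+ and 2.76 (SE 0.27, adjusted p = 1.59e-07) in Flk1- cells. H19, the noncoding RNA next to Igf2, fell by 0.49 (SE 0.09, adjusted p = 0.000364) in Flk1+ cells. In Flk1- cells it fell by 0.26 (adjusted p = 0.0489), a call kept in 12 of 31 settings. Igf2bp1, whose protein binds Igf2 messenger RNA, fell by 0.55 (SE 0.14, adjusted p = 0.00549) in Flk1+ cells and was not called in Flk1- cells. At 84 h Flk1+ cells had more of it than Flk1- cells by 0.54 (adjusted p = 0.0151), and this call ended without the 3 arrays that stood apart.

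**Figure D3:**
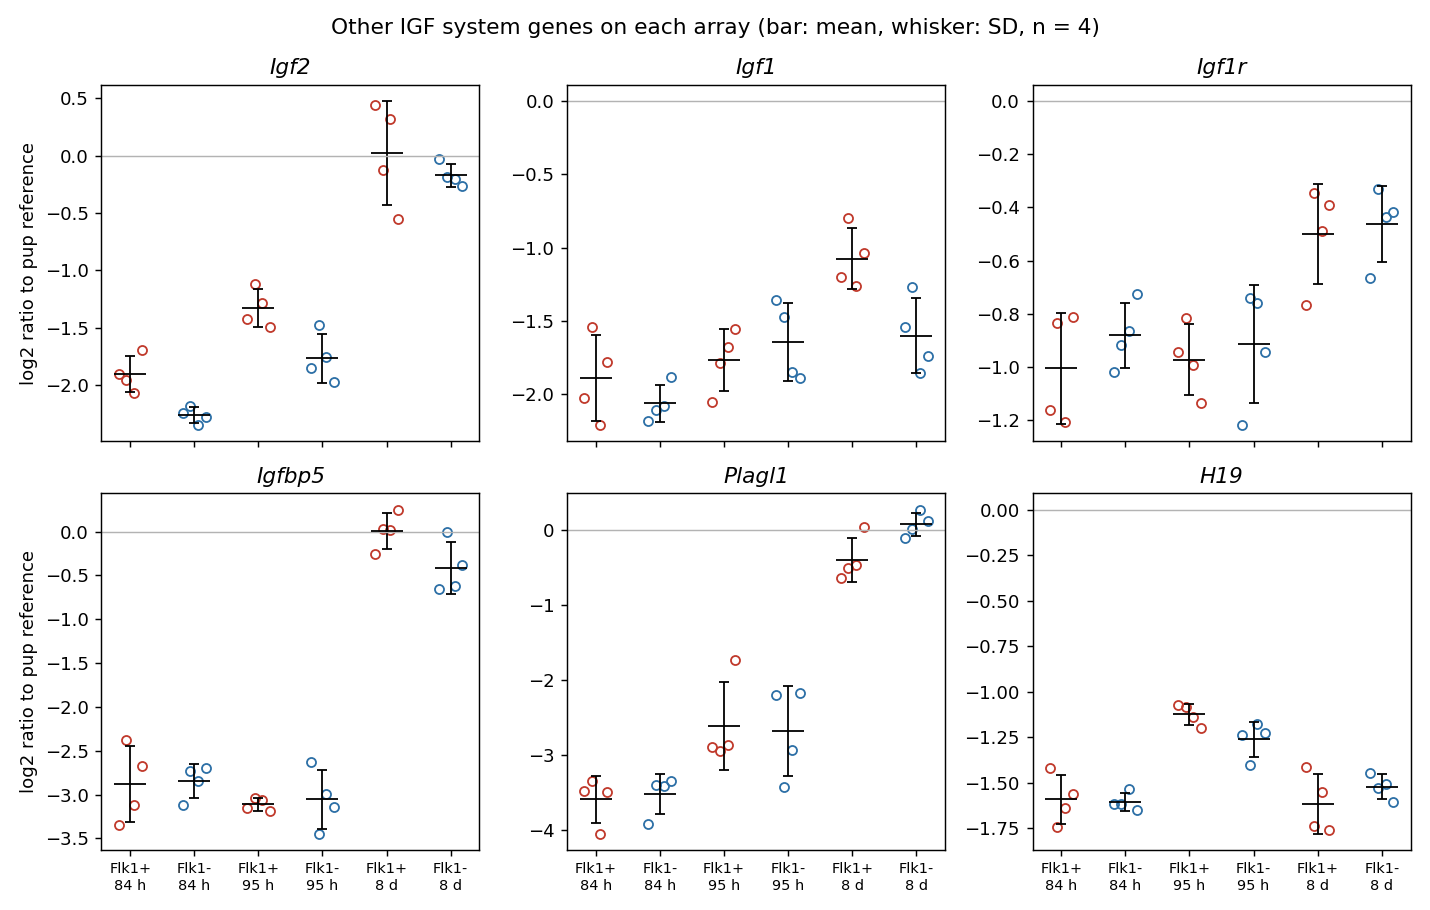
Log2 ratio to the pup reference (y axis, a scale for each gene) of Igf2, Igf1, Igf1r, Igfbp5, Plagl1 and H19 on each array in the 6 groups (x axis). Circles are arrays (red Flk1+, blue Flk1-), bars are means and whiskers SDs of 4 arrays. Igfbp5 lies near -3 in both sorts at 84 h and 95 h and near 0 at 8 d, and Igf2 and Plagl1 are also highest at 8 d.

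Downstream of the receptor, 4 genes were called lower in Flk1+ than in Flk1- cells at both early times, and 0 higher. They were 2 of 6 measured adaptor genes and 2 of 13 measured PI3K, Akt and mTOR genes. Of all features 13.5% were called at 84 h and 2.03% at 95 h. Uncalled genes with an unadjusted p under 0.05 by limma went both ways at 84 h. Among them Irs1, Akt1 and Pik3r2 were higher and Foxo3 lower in Flk1+ cells. At 95 h Ptpn11 was higher. Irs4, an insulin receptor substrate, was lower by -1.33 (SE 0.26, adjusted p = 0.00243) at 84 h and -1.51 (SE 0.26, adjusted p = 0.0016) at 95 h. At 84 h its arrays overlapped, since Flk1+ array 2 was at 1.71 and the others between -0.07 and 0.15. At 8 d Irs4 was lower by -0.77 with no overlap of arrays (15.9% of features had none). It was not called there (unadjusted p = 0.00765, adjusted p = 0.466 by limma). Foxo1, a transcription factor that Akt keeps out of the nucleus, was lower by -1.11 (SE 0.16, adjusted p = 7.49e-05) and -0.87 (SE 0.16, adjusted p = 0.00231), calls kept in all 31 settings. Pik3cb, a catalytic subunit of PI3K, was lower by -1.08 (adjusted p = 0.00154) and -0.97 (adjusted p = 0.00907). The adaptor gene Gab1 was lower by -0.41 (adjusted p = 0.0244) and -0.44 (adjusted p = 0.0414), calls kept in 24 and 12 of 31 settings. When only the 8 arrays of the time were fitted, the calls of Irs4 at 84 h and of Pik3cb at both times ended, and that of Pik3cb at 84 h also ended without the 3 arrays that stood apart (-0.68).

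Of 6 measured genes for described partners of the binding proteins, 2 were called between the sorts at 84 h (13.5% of all features) and 0 at 95 h and 8 d, with 2 and 0 at an unadjusted p under 0.05 by limma. At 84 h Rxra, a nuclear receptor reported to bind IGFBP3, was 0.52 (SE 0.14, adjusted p = 0.0195) and the integrin gene Itga5 0.37 (SE 0.11, adjusted p = 0.0339) higher in Flk1+ cells, and both calls ended without the 3 arrays that stood apart. Lrp1, a receptor for IGFBP3, rose from 84 h to 95 h by 1.21 (SE 0.24, adjusted p = 0.011) in Flk1- cells and by 0.80 (SE 0.24, adjusted p = 0.0243) in Flk1+ cells, the latter kept in 26 of 31 settings. Itgb1 rose from 95 h to 8 d by 0.89 (adjusted p = 0.0084) in Flk1+ and 0.90 (adjusted p = 0.00903) in Flk1- cells. Lrp6, the Wnt coreceptor that IGFBP4 is described to bind, was not called in any comparison, with group means from -0.37 to -0.05, and neither was Ptprz1, with group means from -1.06 to -0.74.

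Over time 9 of the 34 genes were called in Flk1+ cells from 84 h to 95 h, 8 higher and 1 lower (26.5% against 19.8% of all features), and this count was 4 without Flk1+ array 2 of 95 h, 5 without Flk1+ array 2 or 4 of 84 h, 2 without the 3 arrays that stood apart and 0 when only the 8 arrays compared were fitted, where 0 of all features were called by limma. In Flk1- cells 2 were higher and 0 lower (5.88% against 1.64%), and 1 was called without any of 5 single arrays (Flk1- arrays 1 and 2 of 95 h and 1, 2 and 3 of 84 h) and 4 without the 3 that stood apart. The 9 calls in Flk1+ cells were Igf2 (0.58, adjusted p = 0.0192), H19 (0.47, adjusted p = 0.0029), Plagl1 (0.98, adjusted p = 0.0184), Lrp1, the adaptor gene Grb10 (0.87, adjusted p = 0.0105), Pik3ca (0.38, adjusted p = 0.0269), Pdpk1, whose kinase acts on Akt (0.75, adjusted p = 0.028), the translation repressor gene Eif4ebp1 (1.25, adjusted p = 0.0182) and, downward, the adaptor gene Shc1 (-0.38, adjusted p = 0.04). Each was lost in 4 to 9 of the 31 settings, among them the fit of only the 8 arrays compared. Those in Flk1- cells were Lrp1 and Pik3ca (0.48, adjusted p = 0.0352), the latter kept in 25 of 31 settings. From 95 h to 8 d 9 were higher and 2 lower in Flk1+ cells (32.4% against 22.1%), and 8 higher and 3 lower in Flk1- cells (32.4% against 17.7%), where 7 in all were called without Flk1- array 2 of 8 d or array 3 of 95 h. Besides the genes above, Irs1, an insulin receptor substrate, rose in both sorts, by 0.39 (SE 0.09, adjusted p = 0.00378) in Flk1+ and 0.61 (SE 0.09, adjusted p = 4.52e-05) in Flk1- cells. Akt1 rose by 0.48 (adjusted p = 0.00245) and Foxo3 by 0.59 (adjusted p = 0.0204) in Flk1- cells, and the Foxo3 call was lost without Flk1- array 2 or 4 of 8 d or array 3 of 95 h. In Flk1- cells Irs4 fell by 0.81 (adjusted p = 0.0358), a call lost without any of 5 single Flk1- arrays (2 and 4 of 8 d, and 2, 3 and 4 of 95 h). Pik3ca, a catalytic subunit of PI3K, fell by 0.36 (adjusted p = 0.0326), lost without array 1 or 3 of either time. In Flk1+ cells Pik3cb rose by 0.97 (adjusted p = 0.00137) and Foxo1 by 0.46 (adjusted p = 0.0376), the latter kept in 23 of 31 settings. The test of whether the step from 95 h to 8 d differed between the sorts called 0 of the 34 genes by limma, with 4 at an unadjusted p under 0.05. With the replicate number as a block it called Foxo1 (0.91, adjusted p = 0.00893 by limma), which was -0.45 in Flk1- cells over this step (adjusted p = 0.0502, and 0.0381 with the block).

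Other genes correlated highly with the 3 patterns, though not in every comparison. Among 1620 named genes with an SD of at least 0.5 over the 24 arrays, those most like Igfbp2 by Pearson's r were Arhgef16 (0.87), Tom1l1 (0.86), Ier3 (0.85), Spint2 (0.84) and Tmprss2 (0.84). Igfbp3 was most like Kit (0.89), the receptor gene for stem cell factor, followed by Ndrg1 (0.87), Tm7sf3 (0.87), Mtarc2 (0.86) and Mtss1 (0.86). Igfbp4 was most like Tnfrsf1a (0.96), a receptor gene for tumour necrosis factor, then Frmd6 (0.94), Pcdh18 (0.93), the VEGF coreceptor gene Nrp1 (0.93) and Rbms1 (0.93). Over the 6 group means the r of these 15 pairs ran from 0.90 to 0.99. The arrays share groups and reference, and the values are a description with no test. Kit differed between the sorts by -1.38, -1.46 and -0.22 at 84 h, 95 h and 8 d, and Nrp1 by 1.21, 1.04 and 0.29. Tmprss2, a membrane serine protease gene, was the gene like Igfbp2 with the largest sort difference at 8 d, at -1.20.

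**Figure D4:**
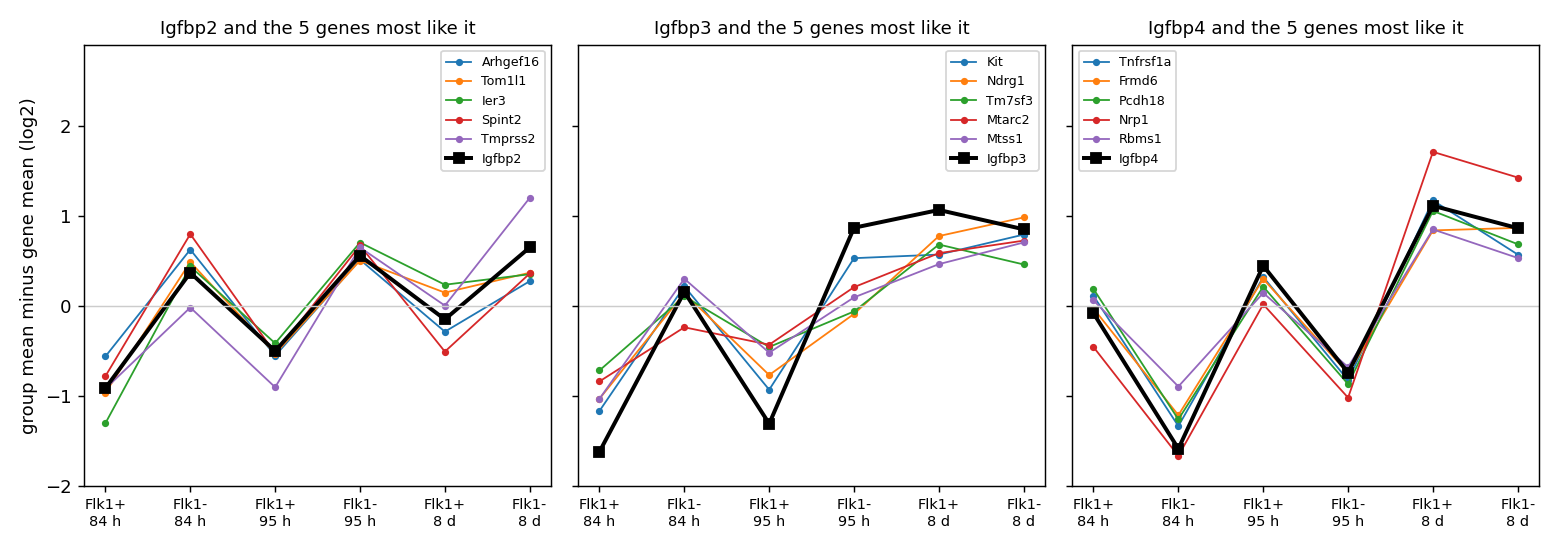
Mean of each of the 6 groups (x axis) after subtracting the gene's own mean over the groups (y axis, log2), for each of the 3 binding protein genes (black squares) and the 5 named genes with the highest r over the 24 arrays (coloured circles). The profiles of the Igfbp2 and Igfbp4 panels zigzag in opposite senses between the sorts of 84 h and 95 h, and those of the Igfbp3 panel are lowest in the Flk1+ cells of these times.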

How the data were processed

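The deposited table gives a log ratio per probe and array, read here as log2, for 24 two-colour arrays. Its log base, direction, background correction and normalization are not given in the sources used here. Array means were 0 as deposited. Values were read as Cy5 (sample) over Cy3 (pup reference), per the labels' dyes: 9 of 10 measured genes of pup tissues lay below 0 (median -2.60) and 8 of 9 pluripotency genes above 0 (median 0.68). Each array's median was set to 0 (deposited medians 0.05 to 0.20) and probes of 1 gene were averaged, giving 17440 features. Of the probes 11813 name 1 gene, 559 several and 7908 none. The 3 members have 1 probe each.

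A single model with 6 group means was fitted to the 24 arrays together (R 4.3.3, limma 3.58.1, lmFit and eBayes, 18 residual degrees of freedom), tested on simulated data. Benjamini-Hochberg adjustment covered all features, and an adjusted p under 0.05 was called. Errors of differences are SEs of this fit. The spread is pooled over groups, and the number of arrays limits the precision. Members, lists and settings were chosen with earlier results of these data known, so members carry no p-value. The rule for named genes took the members, Kdr, listed IGF genes called in a comparison and the 5 genes most like each member. Of the measured listed IGF genes that were not called, only some are named.

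Replicate numbers recur in every group. Deviations from the group means of same-numbered Flk1+ and Flk1- arrays correlated at 0.11 to 0.42 at 95 h and 0.15 to 0.44 at 8 d, over 0.1 for every pair, and at -0.13 to 0.53 at 84 h. At 95 h and 8 d the numbers may thus mark pairs, which is read from the data and not from a label. The main fit held no term for them, so its SEs, p-values and calls are unpaired. Pairs entered only in the block setting and in the differences between arrays of the same number. No array had exchanged dyes. Promoter letters were taken from RefSeq windows (GRCm38.p6), found for all 3 members.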

Additional observations from a re-analysis of the deposited data

Results flagged for a closer look

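In 13 of 186 groups of 4 arrays, 1 array lay far from the other 3 by Dixon's criterion, which chance gives in about 1 of 20 groups. For Igfbp2 these were Flk1- array 3 of 95 h at 0.07, with the others from -0.39 to -0.32, and Flk1- array 2 of 8 d at 0.33, with the others from -0.35 to -0.29. In both cases the array was on the far side from the Flk1+ cells. For Igfbp3 it was Flk1+ array 2 of 95 h at -2.38, with the others from -2.82 to -2.76. Kdr was at -1.30 on Flk1- array 1 of 95 h and at 1.89 on Flk1+ array 4 of 8 d, both away from the other sort. Irs4 was at 1.71 on Flk1+ array 2 of 84 h, 1 of the 3 arrays that stood apart, and at 0.02 on Flk1+ array 2 of 8 d. Rxra was at 0.11 on Flk1+ array 4 of 84 h and at -0.45 on Flk1- array 2 of 8 d. Plagl1 was at -3.92 on Flk1- array 1 of 84 h and at -1.74 on Flk1+ array 4 of 95 h, Akt1 at 0.05 on Flk1+ array 1 of 8 d, and Ptprz1 at -1.57 on Flk1+ array 2 of 84 h, with the others from -0.53 to -0.41. The causes were not tested.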

How the results depend on the processing

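For the 3 genes, 480 of 837 values over the 9 comparisons and 31 settings are identical to within 1e-06 by construction (1 probe a gene, equal groups, arrays outside the comparison). Of the 357 that differed at all, 345 stayed within 1 SD of the reported value and 12 moved further. Quantile normalization gave 10 of the 12: Igfbp2 -0.83 and Igfbp3 -1.33 at 84 h, Igfbp2 -1.06 at 8 d, the Flk1+ step from 84 h to 95 h at 0.082, -0.083 and 0.26 for Igfbp2, Igfbp3 and Igfbp4, the Flk1+ step of Igfbp2 from 95 h to 8 d at -0.076, and the change of the sort difference at -0.15 and -0.81 for Igfbp2 and Igfbp3 to 95 h and -0.077 for Igfbp2 to 8 d. Array weights gave -0.039 for the Flk1+ step of Igfbp3 to 95 h and -0.89 for its change of the sort difference. The cause was not tested.

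Counts of called features between the sorts at 84 h (2352) were 1304 after quantile normalization, 347 with only the arrays compared, 4386 with the replicate block, 3625 with array weights and 1176 without the 3 arrays that stood apart. At 95 h (354) they were 135 with only the arrays compared, 545 with the block and 698 without the 3 arrays. At 8 d (65) they were 218 (quantile), 952 (only the arrays compared), 139 (block), 2332 (weights) and 172 (without the 3). From 84 h to 95 h the counts were 1625, 0, 804 (weights) and 951 (without the 3) in Flk1+ cells (3451), and 70 (only the arrays compared), 2156 (weights) and 668 (without the 3) in Flk1- cells (286). From 95 h to 8 d weights gave 6059 and 6692 and leaving out the 3 arrays 5864 and 5087, in place of 3861 and 3080. Without 1 array the counts ran from 1017 to 4550, 286 to 442 and 31 to 102 between the sorts, 1637 to 5358 and 93 to 449 to 95 h, and 2873 to 4524 and 2308 to 3704 to 8 d.

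Of the 34 IGF system genes, the count at 84 h (7) was 1 with only the arrays compared, 12 with the block and 2 without the 3 arrays, and that at 95 h (4) was 2 with only the arrays compared or with weights. At 8 d (0) it was 2 (quantile), 1 (only the arrays compared, the probe of the largest SD, or without the 3) and 9 (weights). To 95 h it was 2 (quantile, weights, or without the 3) and 0 (only the arrays compared) in Flk1+ cells (9), and 1 (only the arrays compared), 7 (weights) and 4 (without the 3) in Flk1- cells (2). To 8 d weights gave 17 in both sorts (11 each). Without 1 array the counts ran from 3 to 12, 3 to 4 and 0 to 1 between the sorts, 4 to 10 and 1 to 3 to 95 h, and 10 to 12 and 7 to 12 to 8 d.

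At 84 h 2 of 4 Flk1+ arrays correlated best with the Flk1- array of their own number. Same-numbered arrays there had a median r of 0.33, with 3 of 4 over 0.1. Arrays of unlike number had a median r of -0.24, with 5 of 12 over 0.1. The block cannot alter differences in this balanced design. It lowered the SE of the sort differences from 0.16 to 0.12 for Igfbp2, 0.23 to 0.14 for Igfbp3 and 0.17 to 0.14 for Igfbp4. As deposited, the calls at 84 h split into 1447 higher and 1209 lower in place of 925 and 1427, and those of Flk1+ cells into 1648 and 2018 in place of 1947 and 1504 to 95 h. Quantile normalization split them into 625 and 679 at 84 h, and to 8 d into 2304 and 2697 in Flk1+ and 2135 and 2456 in Flk1- cells.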
